A study of Arabidopsis thaliana with 36 samples.

Results

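The genes described here are those whose transcript level moved in opposite directions when the SYD-containing (SAS) or the MINU-containing (MAS) SWI/SNF complexes of Arabidopsis thaliana were mutated. They were chosen on the mean of 3 libraries per genotype among the 18627 genes with a mean of at least 50 normalised reads in wild type (wt) or in 1 or more of the mutants syd, swi3d, sys123, minu12 and pms2ab. A gene was taken when the 3 SAS mutants were all at least 1.3 times wt and both MAS mutants at most 0.77 times wt, or the reverse. The rule took 288 of the 32548 genes measured, which is 1.55% of the genes at that expression floor. In 171 of them the SAS mutants were high and the MAS mutants low (called SAS-high below), and in 117 the order was the opposite (MAS-high). Scaled by library totals in place of the deposited scaling, 137 genes were SAS-high and 136 MAS-high, so the larger number of SAS-high genes depends on the scaling. Those 5 mutants and wt chose the genes, so their values are given as a description without a test. The tests below concern the 6 mutants that the rule did not use.

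SWI/SNF complexes are chromatin remodelers that use ATP to slide or evict nucleosomes, and each is built around a large ATPase. Arabidopsis has the ATPases BRAHMA (BRM), SPLAYED (SYD), and MINUSCULE 1 and 2 (MINU1 and MINU2), which sit in complexes called BAS, SAS and MAS with partly different partner subunits. Cold and abscisic acid responsive genes encode protective hydrophilic proteins and are switched on by drying, cold or the hormone abscisic acid, while nicotianamine synthases, YSL transporters and ferritin handle iron inside the plant.

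The 36 libraries were made from total RNA of 12-day-old seedlings on MS plates with a light period of 16 h (23 °C) and a dark period of 8 h (22 °C), with 3 libraries for each of 12 genotypes. Wild type was compared with brm-/- (brm), brd1-/-brd2-/-brd13-/- (brd1213) and brip1-/-brip2-/- (brip12) of the BAS class. The SAS class was represented by syd-/- (syd), swi3d-/- (swi3d) and sys1-/-sys2-/-sys3-/- (sys123), and the MAS class by minu1-/-minu2-/- (minu12) and pms2a-/-pms2b-/- (pms2ab). Mutants of subunits that are not particular to 1 class were swp73b-/- (swp73b), bcl7a-/-bcl7b-/- (bcl7ab) and an3-/- (an3). All were measured in seedlings, and the sources used here state neither the alleles nor how many plants went into a library. Values are normalised reads, the deposited value of a gene at a common library size of 23089153 reads.

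Recovered library totals ran from 21070583 to 23761910 reads, and log-scale correlations between libraries of 1 genotype from 0.981 to 0.99. Of 15 mutated genes looked up, 11 were lower in every library of their mutant than in every wt library and 2 overlapped wt, SYS3 in sys123 and AN3 in an3. The genes mutated in pms2ab and bcl7ab were not analysed here, so the labels of those libraries are unchecked. The remaining 2 were higher than wt in all 3 libraries, SYD in the libraries labelled syd (1.65 times) and BRD1 in those labelled brd1213 (2.0 times). Reads do not show whether such a transcript is functional, so syd, brd1213 and an3 below mean the libraries so labelled. Summed levels of 28 root markers were 39299 to 49893 in wt, 41204 to 61553 in the SAS mutants and 62684 to 87769 in the MAS mutants. Summed levels of 14 green tissue markers were 1020041 to 1518109 in wt, 1238727 to 1550857 in the SAS mutants and 768463 to 1301119 in the MAS mutants. The 18 seed markers summed to 119 to 131 in wt, 168 to 698 in the SAS mutants, 278, 10491 and 373 in minu12 and 770 to 1913 in pms2ab. DOG1, a SAS-high member described below, is among these markers and made up most of the sums in syd. The part of these differences in the results below was not tested, and in bulk RNA a smaller share of a cell type cannot be told apart from less RNA per cell.

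Both classes were spread over a wide range of levels. Means in wt ran from 0.986 to 17740 normalised reads among SAS-high genes, with a median of 99.7, and from 4.24 to 122338 among MAS-high genes, with a median of 98.0. The median SAS-high gene stood at 2.02 times wt in syd, 1.68 in swi3d and 2.18 in sys123, and at 0.526 in minu12 and 0.378 in pms2ab. The median MAS-high gene stood at 0.484 times wt in syd, 0.632 in swi3d and 0.481 in sys123, and at 1.797 in minu12 and 2.09 in pms2ab. All 9 SAS libraries, the 3 wt libraries and all 6 MAS libraries fell into 3 ranges without overlap, with wt in the middle, in 133 members (71 SAS-high and 62 MAS-high). Among all genes at the floor this held for 1.71%. Leaving wt aside, SAS and MAS libraries did not overlap in 277 members, against 34.9% of the genes at the floor. The rule chose the members on these same libraries, so both separations follow largely from the choice.

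The rule asks for modest ratios, and its edge is close to many genes. Only 19 SAS-high and 9 MAS-high genes were at least 2-fold from wt in all 5 mutants, and 69 and 47 were at least 1.5-fold. GASA6, FAH1 and AT2G07671 were just inside the SAS-high rule, with 1.301, 1.302 and 1.302 times wt in swi3d. AT4G16770 (1.296 times in syd), AT5G66530 (1.294 times in swi3d) and VTE1 (0.775 times in minu12) were just outside. On the MAS-high side AT1G10585 (0.769 times in sys123), AT1G75880 (0.769 times in swi3d) and ULP1B (0.768 times in swi3d) were inside, and GRP9 (0.771 times in syd), LTP5 (1.298 times in minu12) and UPI (1.296 times in pms2ab) were outside. The wt library 3 had the largest part in who was a member: without it 252 genes met the rule, 205 of them among the 288.

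**Figure D1:**
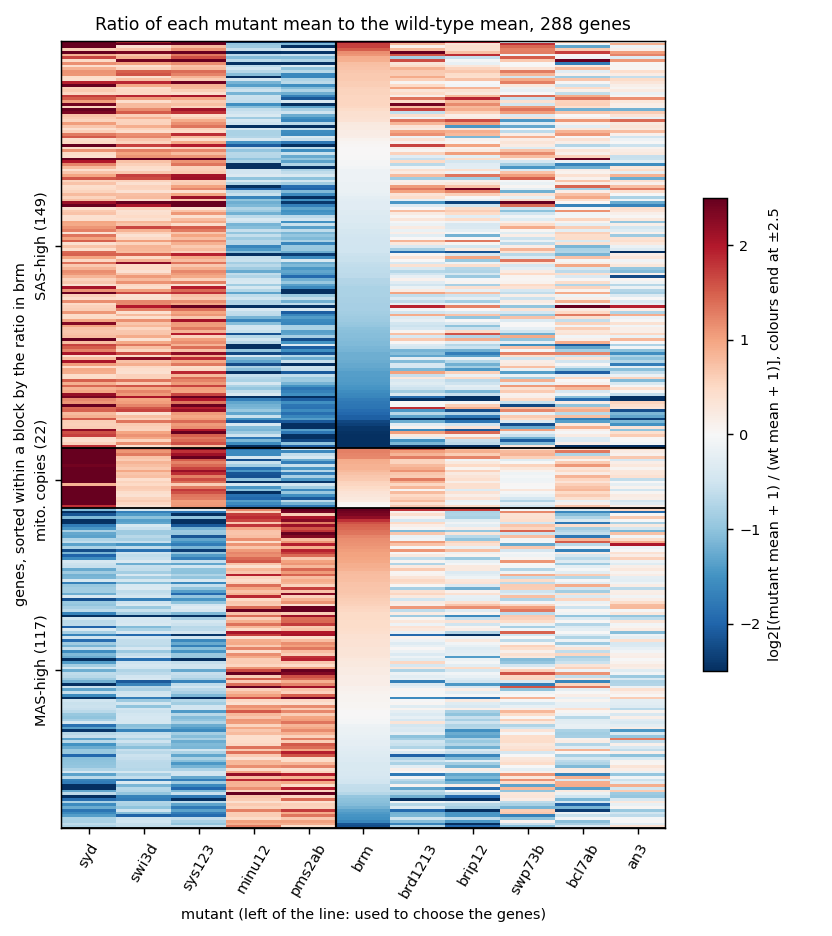
Log2 ratio of the mean of 3 libraries of each mutant (columns) to the wt mean, with 1 normalised read added to both, for the 288 genes (rows: 149 SAS-high genes, 22 SAS-high copies of mitochondrial DNA, 117 MAS-high genes, each block sorted by brm). Left of the vertical line the colours are fixed by the choice of genes; right of it both signs occur in both classes.

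A block of 22 SAS-high genes needs to be kept apart. The genes lie on chromosome 2 between positions 3247003 and 3500612 of TAIR10.1. All of their length is also found in the mitochondrial genome at an identity of 95% or more, and each gene's best match has at least 99.76%. Reads from a mitochondrial transcript and from the nuclear copy cannot be told apart over these genes, so their level is uncertain as a level of the nuclear locus. Their summed level was 679, 592 and 640 normalised reads in the wt libraries. It was 3660, 2637 and 2880 in syd, 907, 1011 and 909 in swi3d, and 1438, 1383 and 1298 in sys123. In minu12 the sums were 260, 340 and 342 and in pms2ab 287, 399 and 322. Among the mutants not used by the rule, they were 868 to 959 in brm, 949 to 1077 in brd1213 and 947 to 1011 in bcl7ab. In brip12 they were 673 to 969, in swp73b 596 to 647 and in an3 582 to 685. The libraries labelled syd were therefore far above all others, and those of the MAS mutants below all others. The 105 other genes with such sequence, which are not members, summed to 1170 to 1497 in wt and 526 to 919 in the MAS mutants. Their sums were 4263 to 6043 in syd, 1127 to 1287 in swi3d and 2049 to 2281 in sys123. Counts of SAS-high genes are given below with these 22 genes and, where it differs, for the other 149.

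Of the 36 matched genes of the abscisic acid and dehydration list, 8 were SAS-high members and none was MAS-high. The 8 members were LTI78 (also RD29A), LTI65 (also RD29B), COR47, KIN2, COR15A, COR15B, LEA4-5 and RAB18. For COR15A, LEA4-5 and RAB18 membership rested on 1 syd library, as described below. COR47 and RAB18 are dehydrins, COR15A and COR15B protect chloroplast membranes during freezing, and LEA4-5 is a late embryogenesis abundant protein. LTI78 had 8416, 9365 and 9855 normalised reads in wt. It had 16116, 38610 and 25339 in syd, 8112, 16889 and 16652 in swi3d, and 27163, 16924 and 12807 in sys123, but 3732, 2967 and 3140 in minu12 and 3466, 4707 and 2510 in pms2ab. Only swi3d library 1 among the SAS libraries lay within or below the wt range, and all MAS libraries lay below it.

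LTI65 showed the widest gap of the group. Its wt values of 918, 1249 and 581 compared with 1608, 10194 and 2506 in syd, 1764, 4674 and 4865 in swi3d, and 8114, 4681 and 7600 in sys123. In minu12 it fell to 19.1, 77.7 and 33.4 and in pms2ab to 48.6, 96.4 and 115 normalised reads, so that SAS, wt and MAS libraries did not overlap. COR15A had 4022, 4622 and 3403 in wt, 2847, 10328 and 5312 in syd, 7604, 12293 and 10366 in swi3d, 11686, 7186 and 13117 in sys123, 790, 1038 and 971 in minu12 and 746, 1120 and 949 in pms2ab. Here the first syd library was below wt while the other 8 SAS libraries were above it. COR47 and KIN2 differed less between the classes: their mean ratios to wt were 1.38 to 1.75 and 1.42 to 1.86 in the SAS mutants, and 0.653 to 0.658 and 0.371 to 0.542 in the MAS mutants. Spread among SAS libraries was wide in the low genes: LEA4-5 had 57.1, 441 and 80.1 in syd against 78.8, 73.8 and 62.9 in wt, and RAB18 had 371, 1642 and 586 against 509, 639 and 351. For LEA4-5, RAB18 and COR15A the high syd mean came from syd library 2. The remaining syd libraries averaged close to wt, so without library 2 these genes would not meet the rule in syd. That library was also the highest of syd for LTI78 and LTI65, but there every syd library was above every wt library. GolS3, a galactinol synthase that makes raffinose precursors under cold, had 94.6, 118 and 133 normalised reads in wt, 97.2, 728 and 724 in syd, 461, 1326 and 1459 in swi3d, 1900, 1610 and 519 in sys123, 52.3, 38.6 and 56.7 in minu12 and 26.0, 22.5 and 13.8 in pms2ab.

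**Figure D2:**
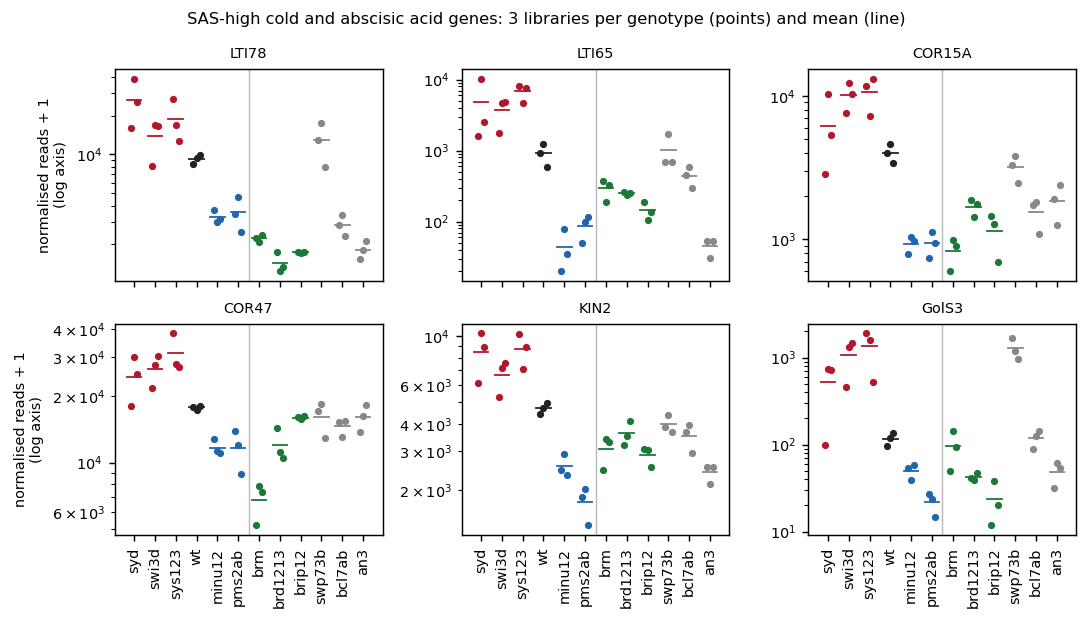
Normalised reads plus 1 (log axis) of 6 SAS-high genes in each of the 3 libraries (points) of 12 genotypes, with the mean as a line; red, SAS mutants; black, wt; blue, MAS mutants; green, BAS mutants; grey, swp73b, bcl7ab and an3. The MAS libraries of LTI65 sit between 19.1 and 115, below wt at 581 to 1249, and the BAS libraries between 105 and 369.

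The sequences before 4 of these genes are shown because they hold 1 or more copies of 2 textbook response elements and lie clear of other genes; they were picked for that and do not stand for the group. They are the 250 bases before the annotated gene start in RefSeq's TAIR10.1, written along the gene's strand. Capitals mark the C-repeat core CCGAC, to which CBF factors bind in the cold, and the abscisic acid response element ACGTGNC, on either strand.
LTI78, chr5:21240467-21240716, plus strand: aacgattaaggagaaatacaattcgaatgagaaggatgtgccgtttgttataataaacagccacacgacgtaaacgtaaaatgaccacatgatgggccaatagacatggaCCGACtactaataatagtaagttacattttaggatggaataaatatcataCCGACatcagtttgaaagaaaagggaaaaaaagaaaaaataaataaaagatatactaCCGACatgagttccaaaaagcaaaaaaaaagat
COR15A, chr2:17712331-17712580, minus strand: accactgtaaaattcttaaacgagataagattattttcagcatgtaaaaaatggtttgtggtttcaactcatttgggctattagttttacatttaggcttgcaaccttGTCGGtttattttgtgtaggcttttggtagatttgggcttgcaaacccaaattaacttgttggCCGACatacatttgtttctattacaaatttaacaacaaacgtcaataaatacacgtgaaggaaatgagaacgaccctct
LTI65, chr5:21236771-21237020, plus strand: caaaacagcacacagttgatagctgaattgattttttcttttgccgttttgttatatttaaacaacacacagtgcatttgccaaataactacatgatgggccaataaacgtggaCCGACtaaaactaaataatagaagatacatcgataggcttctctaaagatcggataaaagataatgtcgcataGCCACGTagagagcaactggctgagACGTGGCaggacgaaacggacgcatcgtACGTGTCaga
LEA4-5, chr5:2090431-2090680, minus strand: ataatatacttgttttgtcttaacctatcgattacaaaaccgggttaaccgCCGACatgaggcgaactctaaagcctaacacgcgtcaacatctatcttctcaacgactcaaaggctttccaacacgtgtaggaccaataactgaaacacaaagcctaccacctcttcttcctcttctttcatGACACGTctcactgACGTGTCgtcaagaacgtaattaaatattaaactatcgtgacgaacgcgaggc
The C-repeat core occurred 3 times before LTI78, 2 times before COR15A and 1 time each before LTI65 and LEA4-5, and the abscisic acid element 3 times before LTI65 and 2 times before LEA4-5. Neither was found in the 250 bases before COR47, KIN2 or COR15B, and RAB18 had 1 abscisic acid element. LTI65 and LTI78 are neighbours on chromosome 5, as are COR15B and COR15A on chromosome 2.

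In the mutants that the rule did not use, these genes mostly lay below wt. LTI78 had 2242, 2068 and 2360 normalised reads in brm, 1756, 1243 and 1336 in brd1213, and 1752, 1712 and 1743 in brip12, all under every wt and every MAS library. It fell in all 3 BAS mutants, by 2.05 ± 0.29 (SE) on the log2 scale in brm, by 2.69 in brd1213 and by 2.404 in brip12 (limma, adjusted p = 8.9e-07, 5.3e-08 and 2.5e-07), and also by 2.35 in an3 (adjusted p = 1.1e-06) and by 1.71 in bcl7ab (adjusted p = 4.2e-05). In swp73b its values of 12961, 17606 and 7970 did not pass the test (log2 change 0.41 ± 0.29, adjusted p = 0.25). LTI65 fell in an3 to 51.6, 29.6 and 51.9 (log2 change -4.31 ± 0.52, limma adjusted p = 7.9e-07) and in brip12 to 190, 105 and 136 (-2.64 ± 0.52, adjusted p = 0.00029). COR15A fell in brm by 2.29 ± 0.33, in brip12 by 1.87 and in bcl7ab by 1.40 (limma adjusted p = 1e-06, 6.5e-05 and 0.0015). COR47 fell in brm to 5216, 7871 and 7346 from 17780, 17369 and 18071 (-1.40 ± 0.18, limma adjusted p = 2.5e-07). TSPO, a membrane protein induced by abscisic acid and salt, was near 0 in an3 with 1.06, 0 and 2.204 against 80.8, 83.0 and 51.9 in wt (-5.25 ± 0.59, limma adjusted p = 2.7e-07).

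Over the whole list of 36 genes, the 8 members included, 26 fell and 3 rose in brm, where 25.5% of all genes tested fell and 24.7% rose. In brd1213 23 fell and 3 rose (10.6% and 9.23% of all genes), in brip12 22 and 3 (13.2% and 11.8%), in an3 22 and 3 (5.74% and 5.03%), in bcl7ab 16 and 5 (14.2% and 16.4%), and in swp73b 13 and 4 (25.5% and 23.9%). The list medians were -1.40, -1.07, -1.25, -1.40, -0.56 and -0.38 on the log2 scale, in that order. In the SAS mutants the list was split, which is given as a description: 13 genes were at least 1.3 times wt and 3 at most 0.77 times in syd, 14 and 12 in swi3d, and 18 and 9 in sys123. CBF1 and CBF2, cold response activators, had means of 564 and 747 normalised reads in wt and 459 and 645 in syd. Their means were 60.9 and 87.1 in swi3d and 92.0 and 142 in sys123. PP2CA, a phosphatase that restrains abscisic acid signalling, had 5285 in wt, 4236 in syd, 1471 in swi3d and 1673 in sys123. The means of CBF1, CBF2 and PP2CA were below wt in the MAS and BAS mutants, swp73b, bcl7ab and an3 too, with 19.6, 49.5 and 762 in minu12. NCED3, the enzyme of the rate-limiting step of abscisic acid synthesis and no member, had a mean of 3642 normalised reads in wt and lower means in all 11 mutants, 97.5 in brm, 1581 in syd and 433 in swi3d among them. Against the mean of the 3 BAS mutants, a contrast without wt, 24 list genes were higher and 3 lower in swp73b. Of all genes tested 26.1% were higher and 27.5% lower in that contrast. In bcl7ab against the same mean 15 list genes were higher and 2 lower, where 21.6% and 20.6% of all genes were.

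FLC and its relatives MAF4 and MAF5, MADS-box factors that delay flowering, were SAS-high. FLC was low in wt with 6.26, 10.4 and 8.11 normalised reads. It reached 47.1, 63.5 and 46.0 in syd, 30.04, 31.5 and 36.3 in swi3d and 68.5, 66.7 and 59.9 in sys123, and was at 0, 0.975 and 0 in minu12 and 0, 2.87 and 0 in pms2ab. All SAS libraries thus lay above wt and all MAS libraries below it, the latter at no more than 2.87. FLC met the expression floor only in syd and sys123, where it was high, so this separation follows largely from the choice of genes. FLC rose in the BAS mutants too, to 61.3, 48.4 and 52.8 in brm (log2 change 2.60 ± 0.52, limma adjusted p = 0.00011), to 64.3, 128 and 113 in brd1213 (3.44 ± 0.52, 1.1e-05) and to 43.2, 27.2 and 34.1 in brip12 (1.96 ± 0.52, 0.0051).

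MAF5 had 15.6, 21.8 and 17.1 in wt, 158, 200 and 160 in syd, 49.1, 136 and 110 in swi3d, 131, 135 and 115 in sys123, at most 1.94 in minu12 and at most 4.73 in pms2ab. It rose in brd1213 to 104, 159 and 107 (log2 change 2.68 ± 0.41, limma adjusted p = 1.6e-05) and in bcl7ab to 63.0, 56.3 and 68.7 (1.74 ± 0.41, 0.0017). MAF4, its neighbour on chromosome 5, had 154, 147 and 138 in syd against 19.7, 19.8 and 21.7 in wt, while swi3d and sys123 stood at 34.9 to 46.7. No change of MAF4 passed the test in the 6 mutants not used (lowest adjusted p = 0.21).

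Other regulators of development were SAS-high as well. DOG1, which sets seed dormancy, had 400, 532 and 373 normalised reads in syd against 70.5, 69.6 and 64.9 in wt, but only 76.1, 97.6 and 94.3 in swi3d, and 16.4, 12.1 and 13.9 in pms2ab. GRF5, a growth-regulating factor of leaf cell proliferation, had 46.9, 92.3 and 83.3 in wt, 352, 416 and 388 in syd, 219, 207 and 211 in swi3d and 289, 238 and 275 in sys123, while minu12 (43.5, 29.8 and 81.0) and pms2ab (49.9, 30.4 and 74.9) overlapped wt. HDA18, a histone deacetylase known from root epidermis patterning, rose in brm to 39.5, 45.5 and 35.1 (log2 change 1.90 ± 0.44, limma adjusted p = 0.00067) and in swp73b to 48.2, 41.5 and 39.7 (2.01 ± 0.44, 0.00042) from 17.5, 12.5 and 4.25 in wt. BFT, a relative of the florigen FT, fell in brm to 0, 14.9 and 0.817 from 36.2, 32.2 and 23.2 (-3.34 ± 0.69, limma adjusted p = 0.00016).

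**Figure D3:**
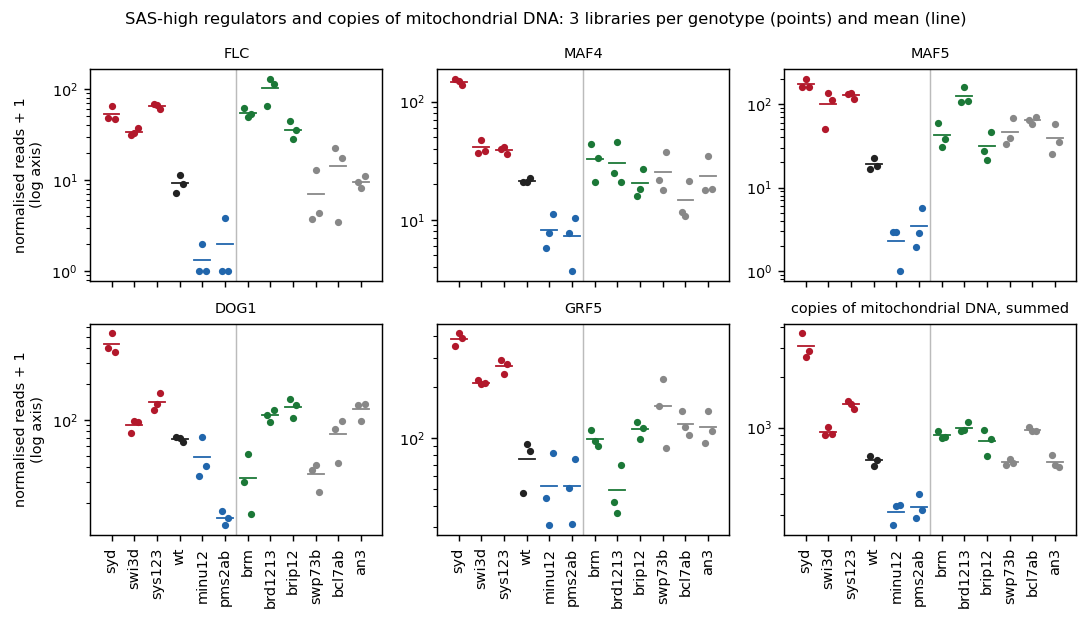
Normalised reads plus 1 (log axis) of 5 SAS-high regulators and the summed level of the 22 SAS-high copies of mitochondrial DNA, in each of the 3 libraries (points) of 12 genotypes with the mean as a line; red, SAS; black, wt; blue, MAS; green, BAS; grey, other mutants. FLC lies at 27.2 to 128 in the BAS libraries and at 6.26 to 10.4 in wt, and the summed copies reach 2637 to 3660 in syd.

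Of the 17 matched chlorophyll synthesis genes 1, PORA, was SAS-high, and of the 36 light-harvesting and photosystem genes none was a member. AOX2, an alternative oxidase of mitochondria, had 437, 630 and 374 normalised reads in syd, 11.02, 20.3 and 18.7 in swi3d and 56.4, 34.5 and 28.6 in sys123 against 4.14, 3.12 and 2.67 in wt. PORA, an enzyme of chlorophyll synthesis in the light-dependent step, had 743, 994 and 679 in wt, 3566, 2874 and 4196 in sys123 and 20.2, 16.8 and 12.9 in pms2ab. SEN1, a gene induced by darkness and senescence, had 6952, 7719 and 5046 in wt, 27764, 24541 and 24404 in sys123 and 1419, 1649 and 1261 in minu12. SEN1 rose in brip12 (log2 change 1.57 ± 0.23, limma adjusted p = 4.8e-06) and fell in brm (-1.09 ± 0.23, 0.0002) and swp73b (-1.21 ± 0.23, 6.6e-05).

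PAR1 and PAR2, HLH proteins that restrain shade-avoidance growth, were called in the same 5 of the unused mutants. PAR1 had 742, 766 and 470 normalised reads in wt, 1706, 1595 and 1695 in brd1213, 2245, 1846 and 2073 in brip12, 1812, 1696 and 1775 in an3, and 261, 250 and 214 in swp73b. PAR1 rose in brd1213, brip12, an3 and bcl7ab (log2 changes 1.37, 1.67, 1.45 and 1.14, each ± 0.22, limma adjusted p from 1.4e-06 to 0.00025) and fell in swp73b (-1.41 ± 0.22, 6e-06). PAR2 rose in the same 4 mutants, by 0.78 to 1.0, and fell in swp73b by 0.66 ± 0.13 (limma adjusted p = 0.00014). Both FBA7 and FBA5, neighbouring aldolase genes, fell in brm and in swp73b, FBA5 by 2.43 ± 0.38 in brm (limma adjusted p = 4.6e-06). PAR2, FBA5, FBA7 and AT1G29120, and below YSL3, IRT3, ZIP3, ZIP5 and CKX7, were chosen after their values were seen and were not refitted one by one under the alternatives.

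Iron genes appeared in both classes. Of 28 matched iron genes, 2 were SAS-high and 4 MAS-high. BHLH101, a transcription factor of the iron deficiency response, was SAS-high with 31.0, 18.8 and 26.2 normalised reads in wt, 88.1, 82.4 and 140 in swi3d, 222, 218 and 32.9 in sys123, and 0 in all 3 pms2ab libraries. AT1G47395, an uncharacterized protein on the iron list, had 149, 130 and 161 in swi3d against 24.9, 28.1 and 28.9 in wt. In syd the mean was 38.5 for BHLH101 and 38.5 for AT1G47395, against 25.3 and 27.3 in wt. Both rose in bcl7ab, BHLH101 to 279, 210 and 312 (log2 change 3.35 ± 0.64, limma adjusted p = 0.00017) and AT1G47395 to 155, 180 and 147 (2.51 ± 0.63, 0.0029). On the same list bHLH38, bHLH39 and BHLH100 were no members. Their means in syd were 32.6, 41.2 and 54.1, against 33.5, 48.1 and 104 in wt.

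The MAS-high iron genes were NAS1 and NAS3 (nicotianamine synthases), YSL1 (a transporter of iron-nicotianamine) and FER4 (a ferritin that stores iron). The other nicotianamine synthases on the list, NAS2 and NAS4, were above wt in swi3d, sys123 and both MAS mutants, and were no members. NAS2 had means of 62.6 in wt, 289 in swi3d, 182 in sys123, 515 in minu12 and 458 in pms2ab. NAS4 had 143, 232, 197, 293 and 262, in the same order. The ferritin genes FER1 and FER3 were no members either, and FER1 had 6800 in wt and 6572 in minu12. NAS1 had 1937, 2148 and 2152 normalised reads in wt, 874, 918 and 1023 in syd, 1527, 1546 and 1300 in swi3d and 1038, 1079 and 1048 in sys123, and rose to 5786, 4132 and 4559 in minu12 and 7843, 5936 and 6997 in pms2ab. NAS3 spanned more: 269, 347 and 489 in wt, 11.03, 13.1 and 21.6 in syd, 59.1, 66.1 and 68.7 in swi3d, 66.0, 42.8 and 34.1 in sys123, 1323, 732 and 855 in minu12 and 1907, 1272 and 1645 in pms2ab. SAS, wt and MAS libraries did not overlap in NAS1, NAS3 or YSL1, while for FER4 1 syd library (957) lay within the wt range of 928 to 1132. YSL3, IRT3, ZIP3 and ZIP5, relatives that carry iron-nicotianamine or zinc and iron, were also MAS-high without overlap of the 3 groups.

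In brm, NAS1, YSL1 and FER4 rose. NAS1 rose in brm to 4428, 3342 and 4777 (log2 change 0.99 ± 0.14, limma adjusted p = 1.1e-06), YSL1 to 1090, 926 and 1114 from 353, 418 and 378 (1.44 ± 0.22, 2.1e-06), and FER4 to 1837, 1839 and 2257 from 928, 1132 and 1105 (0.91 ± 0.27, 0.006). In brd1213 and brip12 NAS1 and YSL1 did not pass the test (log2 changes from -0.16 to 0.18). NAS3 fell in brip12 to 129, 87.7 and 149 (-1.58 ± 0.40, limma adjusted p = 0.004), and YSL1 fell in bcl7ab to 178, 191 and 260 (-0.88 ± 0.22, 0.0023). Over the whole iron list 9 of 28 genes rose and 6 fell in brm, near the 24.7% and 25.5% of all genes tested, and 13 rose and 6 fell in bcl7ab, against 16.4% and 14.2%.

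FSD1 and CAT3, an iron superoxide dismutase and a catalase, were the most abundant MAS-high genes together with NAS1. FSD1 had 34990, 33482 and 30117 normalised reads in wt, 11920 to 23184 in the 9 SAS libraries and 42006 to 66960 in the 6 MAS libraries. It rose in brm to 67106, 67413 and 75105 (log2 change 1.09 ± 0.16, limma adjusted p = 2.2e-06) and in swp73b to 50620, 50957 and 56184 (0.68 ± 0.16, 0.001). CAT3 rose in brm as well (0.92 ± 0.18, adjusted p = 8.6e-05), but the same change of 0.92 did not pass the test when brm and wt alone were fitted (limma, adjusted p = 0.19).

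**Figure D4:**
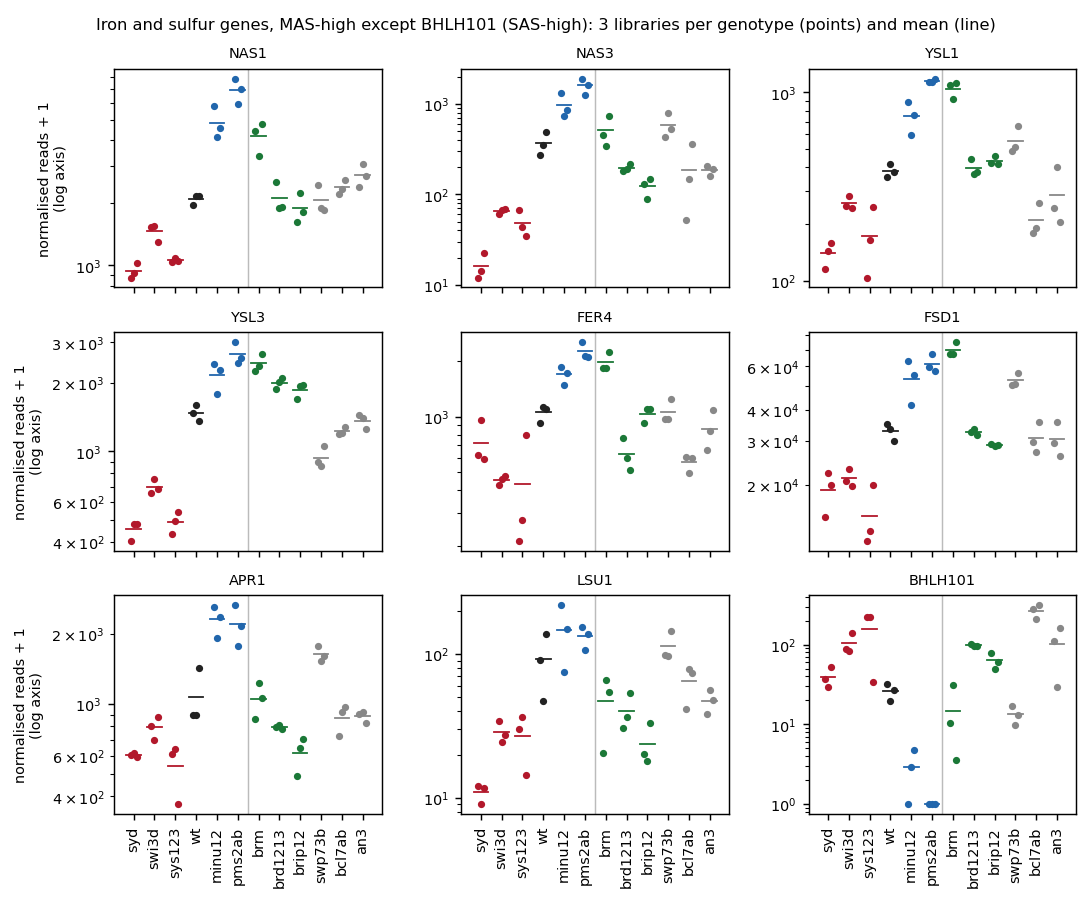
Normalised reads plus 1 (log axis) of 8 MAS-high genes and of the SAS-high BHLH101 in each of the 3 libraries (points) of 12 genotypes, with the mean as a line; red, SAS; black, wt; blue, MAS; green, BAS; grey, other mutants. For NAS1 the brm libraries sit at 3342 to 4777, above wt at 1937 to 2152, whereas brd1213 and brip12 lie at 1615 to 2508.

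Of the 15 matched genes of the sulfur list 2, APR1 and LSU1, were MAS-high and none was SAS-high, and LSU3, which is not on the list, was MAS-high too. APR1, the APS reductase of sulfate assimilation, had 898, 892 and 1423 normalised reads in wt, 371 to 879 in the SAS libraries, 2619, 1926 and 2376 in minu12 and 2659, 1772 and 2157 in pms2ab. It rose in swp73b to 1778, 1526 and 1607 (log2 change 0.65 ± 0.18, limma adjusted p = 0.0043) and fell in brip12 to 490, 643 and 706 (-0.79 ± 0.18, 0.0017). LSU1 and LSU3, neighbouring genes that respond to low sulfur, had 46.1 to 136 and 56.4 to 95.1 in wt, and 8.08 to 11.02 and 11.02 to 18.1 in syd. The means of LSU1 were 146 in minu12 and 132 in pms2ab, the latter below the highest wt library. In brip12 both genes were lower as well. The log2 changes of LSU1 and LSU3 there were -1.87 ± 0.41 and -1.53 ± 0.39 (limma adjusted p = 0.001 and 0.0037). Over the sulfur list 9 genes rose and none fell in swp73b, where 23.9% of all genes tested rose and 25.5% fell, and none rose and 4 fell in brip12, where 11.8% rose and 13.2% fell. As a description, 10 list genes were at least 1.3 times wt and 0 at most 0.77 times in minu12, and 10 and 1 in pms2ab. These counts were 1 and 9 in syd, 1 and 2 in swi3d and 0 and 9 in sys123. APR2, no member, had means of 393 in wt, 409 to 554 in the SAS mutants, 1218 in minu12 and 1728 in pms2ab. APR3, no member either, had 1100, 670 to 978, 3280 and 2861, in the same order.

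Defence and senescence genes in the MAS-high class rested on uneven wt libraries. BGL2 (PR2), a glucanase induced by salicylic acid, had 49.5, 1273 and 53.0 normalised reads in wt, and SAG13, a senescence gene, 18.1, 209 and 59.7. In the second wt library both were far above the other 2, and no change of either passed the test in the 6 unused mutants (lowest adjusted p = 0.14). RLP53, a receptor-like protein, was likewise highest in wt library 2, with 3.29, 49.4 and 7.70.

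Single MAS-high genes outside these lists were read one by one. AT4G38780, a splicing factor-like protein, had 77.8, 81.0 and 71.2 normalised reads in wt, 608, 689 and 692 in minu12 and 354, 377 and 425 in pms2ab, and rose in swp73b to 247, 234 and 207 (log2 change 1.57 ± 0.12, limma adjusted p = 6.4e-11) and in bcl7ab to 166, 160 and 179 (1.12 ± 0.12, 6.9e-08). It did not pass in brm, brd1213, brip12 or an3 (log2 changes from -0.13 to 0.20). ATSPO11-1, which makes the DNA breaks of meiotic recombination, had 14.5, 11.5 and 18.19 in wt, 107, 106 and 100 in minu12 and 123, 99.8 and 106 in pms2ab, and rose in swp73b to 32.9, 37.0 and 44.5 (1.33 ± 0.34, adjusted p = 0.0016 by limma). CYP78A7, a cytochrome P450 of a family that affects organ growth, had 22.9, 21.9 and 31.8 in wt, 219, 220 and 200 in pms2ab and 468, 421 and 373 in brm (log2 change 4.004 ± 0.28, limma adjusted p = 8.7e-12), and rose in brd1213 (1.82 ± 0.28) and brip12 (1.68 ± 0.28) too. CKX7, a cytokinin oxidase, had 161, 199 and 150 in wt and 334 to 435 in the MAS libraries, and no change passed the test in the 6 unused mutants (lowest adjusted p = 0.075).

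The 6 mutants not used by the rule were then read over the whole set. All shared the 3 wt libraries with the rule, and calls rest on the limma fit of 23297 genes with an adjusted p below 0.05. In brm, 29 SAS-high genes were called higher and 70 lower, and 34 MAS-high genes higher and 16 lower. Of all genes tested 50.2% were called in brm, 24.7% higher and 25.5% lower. Without the mitochondrial copies 21 of 149 SAS-high genes (14.1%) were higher and 70 (47.0%) lower, compared with 28.2% and 29.0% of the genes at the floor. Of the MAS-high genes 29.1% were higher, close to that share, and 13.7% lower. The 29 SAS-high genes called higher became 19 without wt library 2 and 17 without brm library 1.

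In the other BAS mutants the lean differed. In brd1213, 35 SAS-high genes were higher (32 of the 149) and 27 lower, and 6 MAS-high genes higher and 22 lower, against 9.23% and 10.6% of all genes (19.8% in either direction). With brd1213 and wt fitted alone, the MAS-high counts were 3 and 14. In brip12, 35 SAS-high genes were higher and 34 lower, and 6 MAS-high genes higher and 38 (32.5%) lower, against 11.8% and 13.2% (25.0% in either direction). The 6 MAS-high genes called higher became 3 without wt library 1 or without brip12 library 2. Lower in all 3 BAS mutants were 19 SAS-high genes (11.1%) and 6 MAS-high genes (5.13%), compared with 5.7% of all genes tested.

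In swp73b, 39 SAS-high genes were higher and 30 lower (29 of the 149), and 28 MAS-high genes higher and 24 lower, compared with 23.9% and 25.5% of all genes (49.4% in either direction). The 30 SAS-high genes called lower became 19 without swp73b library 3, the 28 MAS-high genes called higher 17 without wt library 1, and the 24 called lower 15 without swp73b library 1. In bcl7ab, 46 SAS-high genes were higher (40 of the 149) and 23 lower, and 11 MAS-high genes higher and 33 (28.2%) lower, against 16.4% and 14.2% (30.5% in either direction). In an3, 8 SAS-high genes were higher and 28 (18.8% of the 149) lower, and 9 MAS-high genes higher and 9 lower, against 5.03% and 5.74% (10.8% in either direction). The 8 SAS-high genes called higher became 5 without wt library 1 or 3, and the 9 MAS-high genes called higher 4 with an3 and wt fitted alone. In total 248 members were called in 1 or more of the 6 mutants, 40 in none and 4 in all, compared with 78.6%, 21.4% and 2.09% of all genes tested. Genes at the floor, which all members met, were called more often than all genes tested. Their shares in either direction were 23.0% in brd1213, 28.7% in brip12, 55.4% in swp73b, 34.9% in bcl7ab and 12.6% in an3.

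**Figure D5:**
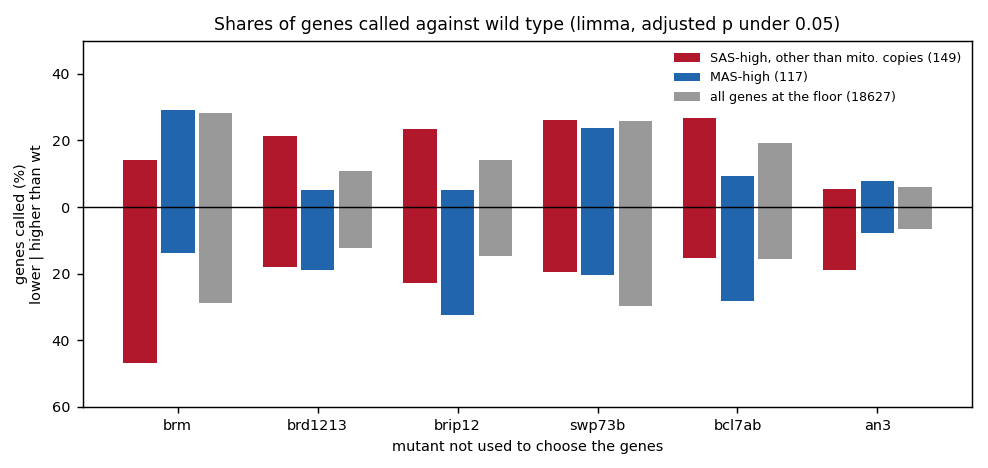
Share of genes called higher (up) or lower (down) than wt, in percent, in the 6 mutants not used to choose the genes, for 149 SAS-high genes other than copies of mitochondrial DNA (red), 117 MAS-high genes (blue) and all 18627 genes at the expression floor (grey). In brm 47.0% of the SAS-high genes were lower, against 29.0% of the genes at the floor; in brip12 32.5% of the MAS-high genes were lower, against 14.7%.

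Contrasts that hold no library used by the rule were made between these mutants. Against the mean of the BAS mutants, 62 SAS-high genes were higher in swp73b and 52 lower (44 of the 149), and 49 MAS-high genes were higher and 29 lower (26.1% and 27.5% of all genes, 53.7% together). In bcl7ab against the BAS mean, 62 SAS-high genes were higher and 27 lower (26 of the 149), and 29 MAS-high genes higher and 37 lower (21.6% and 20.6%, 42.2% together). In swp73b against bcl7ab, 41 SAS-high genes were higher and 51 lower (40 and 45 of the 149), and 49 MAS-high genes (41.9%) higher and 22 lower (24.2% and 25.7%, 50.0% together). Of the MAS-high genes 7 were higher than wt in swp73b and lower in bcl7ab, which is 5.98% of the class and 0.97% of all genes tested.

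Position and sequence before the genes were compared as a description. The SAS-high genes lay 41, 49, 27, 17 and 37 on chromosomes 1 to 5, with the 22 copies on chromosome 2, and the MAS-high genes 34, 14, 25, 21 and 23. Outside those copies 6 pairs of members were direct neighbours, each with both genes in 1 class. These were COR15B with COR15A, LTI65 with LTI78, MAF4 with MAF5, FBA7 with FBA5 and AT1G29110 with AT1G29120 among SAS-high genes, and LSU3 with LSU1 among MAS-high genes.

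In the 250 bases before the gene start, both strands searched, the abscisic acid element shown above was found in 18.1% of the 149 SAS-high genes, 8.55% of the MAS-high genes and 9.71% of the genes at the floor. The C-repeat core was found in 19.5%, 6.84% and 13.1%, in the same order. The G-box (CACGTG), which can overlap the abscisic acid element, was found in 12.1%, 6.84% and 7.51%. The evening element of clock-regulated genes (AAAATATCT) was found in 6.71%, 1.71% and 2.51%.

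The other 6 motifs searched were the W-box core (TTGAC), the copper response core (GTAC), the sulfur response core (GAGAC), the GCC box (GCCGCC), the telo box (AAACCCTA) and site II (TGGGCC). The W-box core was found in 40.3%, 47.9% and 44.9% and the copper response core in 32.9%, 38.5% and 34.4%. The sulfur response core was found in 35 of the 149 SAS-high genes, 27 of the 117 MAS-high genes and 25.2% of the genes at the floor. The GCC box was in 0 of the 149, 0.855% and 1.98%, the telo box in 1.34%, 3.42% and 3.48%, and site II in 12.8%, 11.1% and 16.9%.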

How the data were processed

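The deposited values are a signal that the authors made with edgeR, per the submitters' processing notes, which also name HISAT2 and TAIR10 without versions. The sources used here do not give the counting step or the annotation. The values have the form of edgeR pseudo-counts at a common library size: inverting that adjustment at a fitted dispersion of 0.0127 gave whole reads (within 0.01 reads) for 100% of 1171728 values. Each table repeats the 3 wt columns, which were used once.

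The main test was limma 3.58.1 (R 4.3.3) with a trend on log2(value + 1), 1 fit of 36 libraries with a term per genotype, for 23297 genes with a mean of at least 1. Adjustment was by Benjamini and Hochberg over all these genes, with calls below 0.05. Changes are on that log2 scale, which understates those of low genes. The script was tested on simulated data. The labels do not say that libraries came from separate plants, so p-values measure the spread between libraries. The set of genes, the 33 gene lists and the rule for naming genes were chosen with earlier results of these data known. That rule takes, per class, the 12 genes with the largest smallest ratio, the 3 highest in wt, those at the threshold, the 3 most changed each way per unused mutant, list members and transcription factors. Alternatives were other scaling, filters, pseudocounts, edgeR 4.0.16's quasi-likelihood test on the recovered reads (153 members called in brm, 149 with limma), a replicate block, only the groups compared, and each library left out in turn. Same-numbered wt and bcl7ab libraries deviated together (r = 0.222, 0.155 and 0.252). For no other pair of groups compared did every number do so. The main test did not pair libraries, for bcl7ab either, and the replicate block was run only as an alternative. Symbols, gene positions and upstream sequence came from RefSeq's TAIR10.1, matched by locus tag for all 32548 genes. Copies of mitochondrial DNA were found with blastn 2.17.0 (50% or more of a gene's length at 95% identity or more). Of 846 list entries, 810 were matched.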

Additional observations from a re-analysis of the deposited data

Results flagged for a closer look

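The change against wt went in opposite directions in swp73b and bcl7ab, with both changes called and the difference itself called by limma, in 11 of the genes named by the rule. All values are log2 changes.

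Among MAS-high genes the difference, swp73b minus bcl7ab, was 2.84 for AT1G80130 (adjusted p = 1.8e-09), a tetratricopeptide repeat protein that rose by 1.18 in swp73b and fell by 1.66 in bcl7ab. It was 2.19 for PIL1 (1.09e-07), a light-repressed relative of the phytochrome interacting factors, 2.85 for AT4G22960 (3.13e-07) and 1.41 for YSL1 (4.1e-06), all higher in swp73b and lower in bcl7ab. It was -1.31 for the NAC factor NAC2 (4.45e-08) and -2.25 for AT4G19420, of a family of pectin-modifying esterases (2.38e-12), both lower in swp73b and higher in bcl7ab.

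Among SAS-high genes the difference was -2.17 for GASA6 (1.69e-09), a gibberellin-regulated peptide, -1.17 for AT2G07671 (1.88e-05), a copy of mitochondrial sequence, -1.93 for AT2G41990 (7.63e-09), a late embryogenesis abundant protein, and -2.55 for PAR1 (4.07e-10). These were lower in swp73b and higher in bcl7ab. AOX2 differed by 3.04 (8.72e-06), being higher in swp73b and lower in bcl7ab, at values of 5.81 to 15.6 and 0 to 1.06 normalised reads. Summed green tissue markers were 790924 to 1054708 in swp73b and 1674334 to 1898898 in bcl7ab, and their part in these differences was not tested. The change against wt was lost under 1 or more alternatives for AT4G22960 (without wt library 1, adjusted p = 0.0776), AT2G41990 (without wt library 1 or 2 or swp73b library 3, up to 0.094), YSL1 (up to 0.199) and AOX2 (pseudocount of 0.5, or without wt library 2 or 3 or swp73b library 1 or 2, up to 0.144) in swp73b. It was also lost for NAC2 (without bcl7ab library 3, 0.0508), PIL1 (up to 0.137) and AOX2 (pseudocount of 10 or edgeR, up to 0.159) in bcl7ab, and for AT2G07671 in swp73b under 9 alternatives (up to 0.283).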

How the results depend on the processing

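The number of members depended most on the ratio asked for: 116 genes met a 1.5-fold rule. With floors of 20 and 100 normalised reads 358 and 224 genes met it, with library totals in place of the deposited scaling 273 (137 SAS-high and 136 MAS-high), and without the mitochondrial copies, an alternative chosen after seeing the data, 266. Leaving out each library in turn gave 252 to 310 genes, of which 205 to 283 were among the 288. The total of members called in a mutant stayed within 1.5 times under every alternative run, while counts by class and direction that moved further stand beside them above; with the replicate block 114 members were called in bcl7ab, compared with 113 without it, and no named call in bcl7ab was lost. Of 267 called changes of named genes none reversed, and 97 were lost under 1 or more alternatives, among them COR15B in brm, FER4 in brd1213, LSU1 in brm, RAB18 in brm, PIL1 in bcl7ab and YSL1 in swp73b. The cause was not tested. AOX2 was lost in bcl7ab with a pseudocount of 10 and with edgeR (highest adjusted p = 0.159), and in swp73b under 5 alternatives (0.144).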
